A study of Homo sapiens with 12 samples.

Results

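The 10 genes described here encode the chains of fibrinogen, a secreted relative of fibrinogen, and clotting proteins that do not need vitamin K. They are FGA, FGB, FGG, FGL1, F5, F11, F12, F13B, F3 and TFPI, found by gene symbol, and all 10 were present among the 16389 genes of the count table. RNA with poly(A) tails was sequenced from 12 libraries of HepG2, an established human liver cancer cell line that was at passage 9. The 3 LG libraries came from cells kept for 48 h in medium with 5.5 mM glucose, and the 3 HG libraries from cells kept for 48 h with D-glucose raised to 20 mM. For the 3 LGV and the 3 HGV libraries, cells from these same media then received 1 mM valproic acid (VPA), an inhibitor of histone deacetylases, for another 12 h. Whether the untreated cells were collected before or after those 12 h is not stated, so the VPA comparisons may also hold a difference in time in culture. The medium of all groups held 10% fetal bovine serum, and no group with another sugar at the same concentration was among the libraries. Each group is one cell line in one laboratory, and nothing says that the replicates were separate cultures, so p-values measure only the spread between these libraries.

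Fibrinogen is a paired hexamer of Aα, Bβ and γ chains made in hepatocytes and is an acute phase protein of plasma. Tissue factor, encoded by F3, starts clotting when blood meets cells outside the vessel, and TFPI shuts off the complex that tissue factor forms. Factors XI and XII are the zymogens of the contact route, factor V is a cofactor of prothrombin cleavage, and factor XIII cross-links the fibrin strands that thrombin makes from fibrinogen.

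The sequences upstream of 3 members and a short stretch of FGG are shown because these genes carry the contrasts described here. FGA and FGB differed with glucose and with VPA, and F3 was higher with VPA in high glucose. They are RefSeq sequences from a promoter table of GRCh38.p14, of which the 250 bases before the start site are printed, 5′ to 3′ on the strand of the gene. Each matched GRCh37 at 1 place, at chr4:155511895-155512144 on the minus strand for FGA, chr4:155483882-155484131 on the plus strand for FGB and chr1:95007316-95007565 on the minus strand for F3. For FGG only 30 bases are printed, chr4:155533951-155533980 on the minus strand, because exons of other FGG transcripts lie in the rest of its window. Capitals mark motif matches on either strand, and no matches overlapped.
FGA: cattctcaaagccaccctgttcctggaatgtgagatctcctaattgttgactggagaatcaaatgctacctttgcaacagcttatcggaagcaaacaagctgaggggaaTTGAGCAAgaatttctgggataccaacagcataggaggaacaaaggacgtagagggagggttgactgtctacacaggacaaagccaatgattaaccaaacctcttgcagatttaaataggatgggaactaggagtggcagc
FGB: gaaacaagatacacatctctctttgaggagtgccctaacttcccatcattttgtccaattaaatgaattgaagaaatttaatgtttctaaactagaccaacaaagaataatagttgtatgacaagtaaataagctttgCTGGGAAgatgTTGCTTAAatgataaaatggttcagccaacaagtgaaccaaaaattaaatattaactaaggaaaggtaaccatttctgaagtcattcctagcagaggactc
FGG: gtgtgcaaaatCTGGGAAcctgacagtata
F3: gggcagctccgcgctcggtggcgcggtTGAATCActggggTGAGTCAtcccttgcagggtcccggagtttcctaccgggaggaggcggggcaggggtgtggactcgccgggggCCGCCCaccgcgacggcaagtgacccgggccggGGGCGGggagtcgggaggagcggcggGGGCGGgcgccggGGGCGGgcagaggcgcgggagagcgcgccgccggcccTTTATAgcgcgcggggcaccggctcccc

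The windows of 9 members, all but FGL1, were searched for 7 motifs, and the same windows of 35097 promoters gave the background. The C/EBP core TTGCNNAA occurred in FGA from -141 to -134 and in FGB from -101 to -94, with a share of 9.05% among promoters. FGB from -112 to -106 and FGG from -161 to -155 held CTGGGAA, the core of the interleukin-6 response element, which 9.16% of promoters held. F3 differed from these liver genes in its window, which was 78.0% G and C against 45.2% for FGA, 33.2% for FGB and 50.8% for FGG. Among all windows searched other than that of F3, the share ran from 28.4% for F13B to 56.8% for F5. The F3 window held 4 GC boxes (GGGCGG, in 42.63% of promoters) and the AP-1 site TGANTCA at 2 places (6.57%). It also held a TATA box (TATAAA, 10.72%) from -28 to -23, and F13B held a TATA box from -64 to -59. The HNF4 site CAAAGTCC (1.02% of promoters) and the E-box CACGTG (6.34%) matched none of the 9 windows. A match describes letters in these windows and is not evidence of a bound factor.

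Between 29798442 and 45572694 reads per library were counted, and levels are given as CPM, counts scaled to library size and to edgeR's TMM factors, which ran from 0.8794 to 1.0948. A count of 3 reads, taken as a floor that covers counting error only, stood for 0.0658 to 0.101 CPM. The lowest count of any member was 26 reads, for F13B in LG replicate 1. Of 7 hepatocyte markers all were in the table, with summed levels of 46900 to 52000 CPM in LG, 45800 to 53500 in HG, 36100 to 36800 in LGV and 40700 to 54100 in HGV. Markers of other cells were scarce. Endothelial markers (2 of 5 in the table) were CDH5 and VWF. They summed to 2.3 to 2.99 CPM in LG, 2.21 to 3.71 in HG, 2.24 to 3.09 in LGV and 3.83 to 4.85 in HGV. CDH5, with 10 to 19 reads per HG library, was called higher between HGV and HG (1.65, FDR 0.00133). VWF was not called there (0.18, FDR 0.576). CD14, the only leukocyte marker of 5, was at 1.2 to 2.5 CPM in LG, 3.87 to 4.73 in HG, 0.63 to 1.41 in LGV and 2.59 to 3.34 in HGV. Its group means had the order of FGA, and it was called between HG and LG (1.28, FDR 0.0016) and between HGV and HG (-0.56, FDR 0.0218). Of the stellate and fibroblast markers 2 of 5 were in the table, with sums of 17.4 to 20.2 CPM in LG, 36.3 to 39.2 in HG, 11.8 to 12.2 in LGV and 20.7 to 27 in HGV. ACTA2 made up most of these sums and had the order of FGA, whereas COL1A1, at group means of 0.226 to 1.97 CPM, was higher with VPA (2.52 in high and 2.36 in low glucose). Platelet markers (2 of 5, ITGA2B and GP1BA) summed to 1.2 to 1.72 CPM in LG, 1.6 to 2.42 in HG, 6.56 to 8.85 in LGV and 9.05 to 10.1 in HGV, and ITGA2B rose with VPA (2.92 in high and 2.90 in low glucose), as F3 did in high glucose. The part of these markers in the results was not tested. In bulk RNA, fewer cells of a type and less RNA per cell cannot be told apart.

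The 3 fibrinogen chains together took 0.876% to 1.115% of the counted reads in HG, 0.525% to 0.666% in HGV, 0.431% to 0.694% in LG and 0.278% to 0.299% in LGV. By reads, FGA ranked from 12 to 14 among all genes in HG and from 67 to 70 in LGV. FGG ranked from 25 to 33 in HG and from 83 to 95 in LGV, and FGB lower, from 67 to 118 in HG and from 273 to 378 in LGV. Per kilobase of the canonical transcript, FGA and FGG had the highest mean levels of the 10 genes in every group, at 2720 and 1440 CPM per kilobase in HG. F13B had the lowest in every group, at 0.397 to 0.961 CPM per kilobase. The level per kilobase of FGB, 290 in HG, rests on a canonical transcript of 3641 bases, which is longer than those of FGA (2209) and FGG (2072), and the length of the transcripts present in these cells was not measured.

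**Figure D1:**
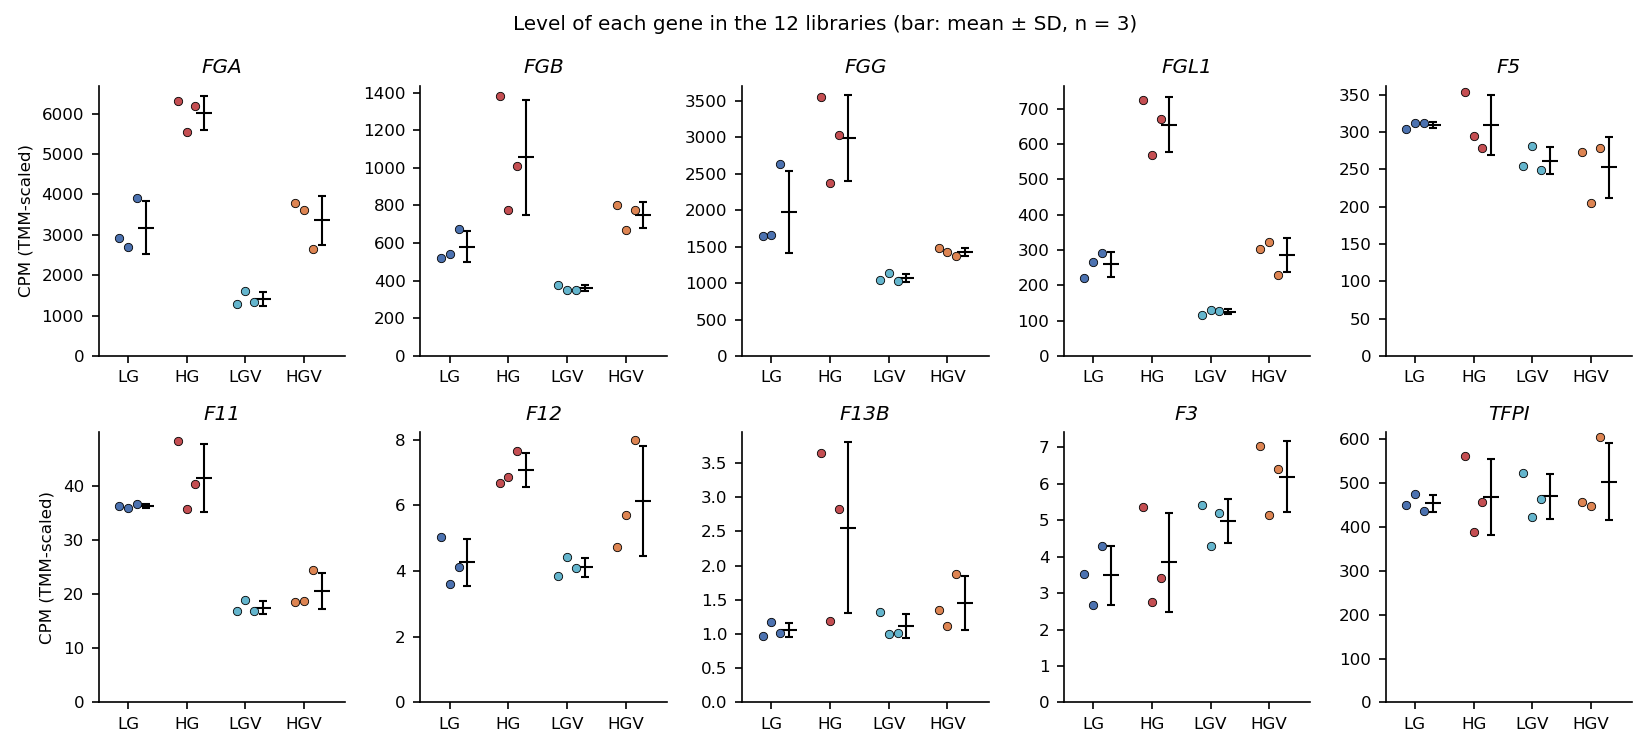
Level of each of the 10 genes in TMM-scaled CPM (linear axes from 0) in the 3 libraries of LG, HG, LGV and HGV; points are libraries and bars the mean ± SD (n = 3). The 3 HG libraries lie above the other 9 for FGA and FGL1, and the LGV libraries lie below the other 9 for FGA, FGB, FGG and FGL1.

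FGA, FGB and FGG lie side by side on chromosome 4 of GRCh37, within 50.0 kb (155484163 to 155534119), with FGB on the plus strand and FGA and FGG on the minus strand. FGA (ENSG00000171560, 155504278 to 155511894, 5 exons in its canonical transcript) encodes the Aα chain. It was at 2911, 2695 and 3918 CPM in LG and at 6309, 5548 and 6188 CPM in HG. With VPA it was at 1281, 1602 and 1345 CPM in LGV and at 3797, 3618 and 2650 CPM in HGV. Every HG library lay above every LG library and every LGV library below every LG library, while HGV overlapped LG. The order of group means was HG, HGV, LG and LGV, with 6015 ± 409 CPM (SD, n = 3) at the top and 1410 ± 170 CPM at the bottom, a 4.27-fold range. Only the neighbours HGV (3355 ± 617 CPM) and LG (3175 ± 653 CPM) overlapped.

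FGB (ENSG00000171564, 155484163 to 155493959, 8 exons) encodes the Bβ chain, which has been described as the limiting chain in assembly of the hexamer. Its level was 522, 544 and 677 CPM in LG, and 1383, 777 and 1008 CPM in HG. In LGV it was 379, 352 and 350 CPM, and in HGV 802, 669 and 774 CPM. HG lay above LG in all 3 libraries, but HG replicate 2 fell within the range of HGV. HG replicate 1 was the highest of the 12 libraries and made the spread in HG, 1056 ± 305 CPM, the widest of the groups for this gene.

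FGG (ENSG00000171557, 155525286 to 155534119, 9 exons) encodes the γ chain. It had 1644, 1666 and 2632 CPM in LG and 3556, 2382 and 3034 CPM in HG. It had 1044, 1133 and 1029 CPM in LGV and 1488, 1425 and 1377 CPM in HGV. LG replicate 3 exceeded HG replicate 2, and all 6 VPA libraries lay below the 6 untreated ones. Unlike those of FGA and FGB, its group means ran in the order HG, LG, HGV and LGV.

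FGL1 (ENSG00000104760, chromosome 8, 17721889 to 17767874, minus strand) encodes a secreted hepatocyte protein with a fibrinogen-like domain that is not part of the clot and is known as a ligand of LAG3, an inhibitory receptor of T cells. Its level was 222, 266 and 291 CPM in LG and 723, 569 and 671 CPM in HG. It was 117, 131 and 126 CPM in LGV and 302, 324 and 230 CPM in HGV. Its order and the overlap of HGV with LG were those of FGA, over a wider range of 5.25-fold between HG and LGV.

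High glucose was compared with low glucose to ask how hyperglycaemia shifts these genes. Of the 10 genes, 6 passed an FDR of 0.05 (edgeR quasi-likelihood F test with Benjamini-Hochberg adjustment over all genes tested), and all 6 rose in HG. Over all genes tested, 12.0% of 15452 genes were called higher and 12.7% lower. The median log2 fold change was 0.69 over the members and 0.01 over all genes tested. FGL1 rose by 1.35 on the log2 scale (SE 0.13, FDR 1.35e-06). FGA rose by 0.94 (SE 0.14, FDR 0.000132), or 1.92-fold, and FGB by 0.88 (SE 0.16, FDR 0.000836), or 1.84-fold. FGG rose less, by 0.61 (SE 0.17, FDR 0.0139), and lost the call without HG replicate 1, LG replicate 1 or LG replicate 2, with an FDR of up to 0.111.

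F12 and F13B also rose with glucose, from low levels. F12 (ENSG00000131187, chromosome 5, 176829134 to 176843584, minus strand), which encodes factor XII, was at 5.05, 3.62 and 4.14 CPM in LG and at 6.69, 6.88 and 7.67 CPM in HG. The groups did not overlap, and the log2 fold change was 0.76 (SE 0.20, FDR 0.00858). Its FDR was 0.0522 without HG replicate 3. Of its annotated exon bases, 399 (7.1%) lie opposite exons of GRK6. F13B (ENSG00000143278, chromosome 1, 197007871 to 197036390, minus strand), the gene of the carrier subunit of factor XIII, was at 0.972, 1.17 and 1.02 CPM in LG and at 3.65, 1.20 and 2.83 CPM in HG. The lowest HG library, replicate 2 with 40 reads, was barely above the highest LG library, replicate 2 with 47 reads out of a larger total. F13B rose by 1.28 on the log2 scale (SE 0.32, FDR 0.00786), with an FDR of 0.0771 without HG replicate 1 and 0.0566 without LG replicate 1. Leaving out single libraries moved its value between 0.96 and 1.61, which spans that of FGL1. F13A1, the gene of the catalytic subunit, was not analysed here.

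The other 4 genes were not called between HG and LG. F5 (ENSG00000198734, chromosome 1, 169481189 to 169555826, minus strand) had 304, 313 and 311 CPM in LG and 354, 294 and 279 CPM in HG, with a log2 fold change of 0.02 (SE 0.12). F11 (ENSG00000088926, chromosome 4, 187187343 to 187210835, plus strand), on the same chromosome as the fibrinogen genes but not next to them, had 36.3, 36.0 and 36.7 CPM in LG and 48.3, 35.8 and 40.3 CPM in HG. The 3 LG libraries were nearly equal and the HG libraries spread around them, and the log2 fold change was 0.21 (SE 0.14, FDR 0.275). F3 and TFPI had log2 fold changes of 0.15 (SE 0.25, FDR 0.692) and 0.07 (SE 0.13, FDR 0.747).

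HG replicate 1 was the highest of the 3 HG libraries for 9 of the 10 genes, and HG replicate 2 the lowest for 8. Over all genes these libraries were the highest in 40.5% and the lowest in 35.1% of cases. The members of one library share its RNA, so these are not independent observations.

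**Figure D2:**
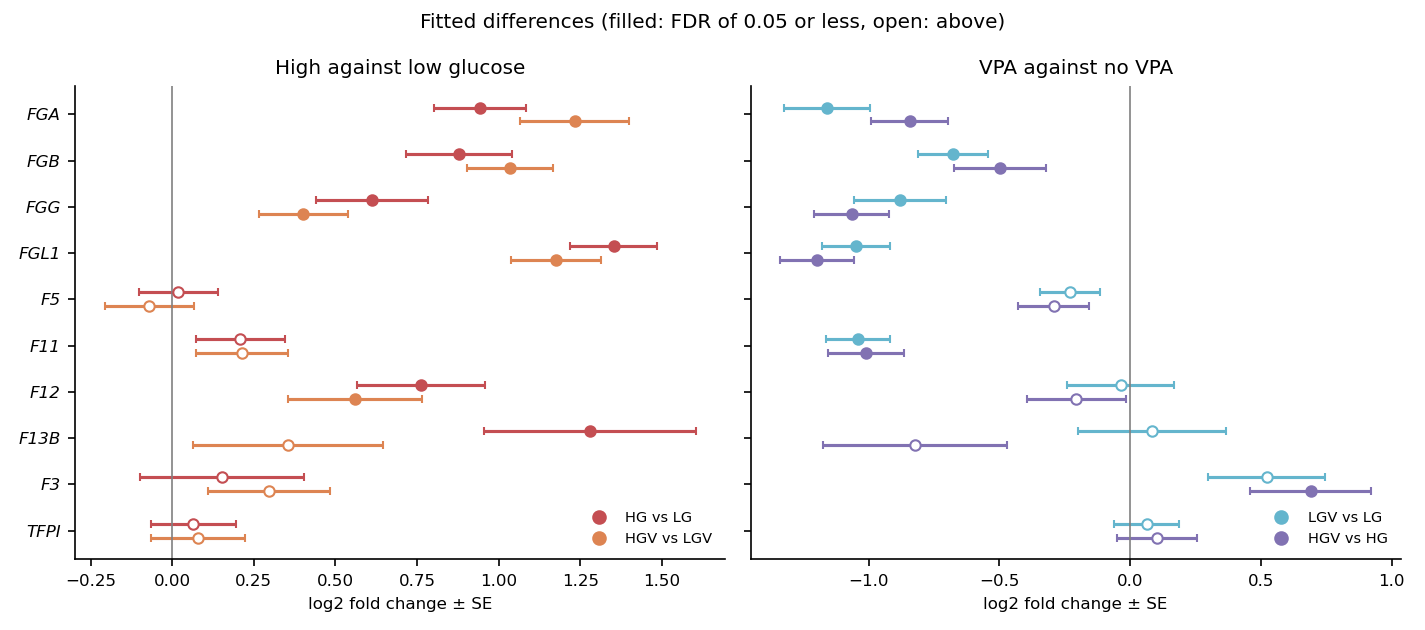
Log2 fold change ± SE of each gene for high against low glucose (left) and VPA against no VPA (right), from edgeR; filled points have an FDR of 0.05 or less and open points do not. FGA, FGB, FGG, FGL1 and F12 lie above 0 and are filled in both glucose comparisons, and FGA, FGB, FGG, FGL1 and F11 lie below 0 and are filled in both VPA comparisons.

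VPA was added in high glucose to ask whether it lowers genes that hyperglycaemia raises. This comparison and that of HG with LG use the same 3 HG libraries. A high value in HG therefore adds to the rise in one and to the fall in the other, and the 2 results are not independent. Between HGV and HG, 5 genes fell and 1 rose, against 20.2% of 16188 genes called lower and 25.8% called higher. The members had a median log2 fold change of -0.66, and all genes tested had 0.03. The median of the 7 hepatocyte markers was -0.13, with 1 called higher and 1 lower. FGL1 fell by 1.20 on the log2 scale (SE 0.14, FDR 2.2e-05), FGG by 1.07 (SE 0.14, FDR 6.77e-05) and FGA by 0.84 (SE 0.15, FDR 0.000497). FGB fell by 0.50 (SE 0.18, FDR 0.0353), a call that was lost without any one of HG replicate 1 or 3 or HGV replicate 1, 2 or 3. Without HG replicate 1 the value for FGB was -0.28 with an FDR of 0.138, and it was -0.37 with an FDR of 0.108 when libraries were scaled by size alone.

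F11 fell with VPA in both media although it was not called with glucose. Factor XI is activated by thrombin and by factor XIIa. F11 had 18.6, 18.7 and 24.4 CPM in HGV and 16.9, 18.8 and 16.9 CPM in LGV. All 6 VPA libraries lay below all 6 untreated ones. The log2 fold change was -1.01 (SE 0.15, FDR 0.000117) in high glucose and -1.04 (SE 0.12, FDR 1.1e-05) in low glucose. Of its annotated exon bases 550 (13.8%) lie opposite F11-AS1, an antisense gene, and the strand setting of the counting is not given, so reads of the pair cannot be told apart.

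F3 was the member that rose with VPA in high glucose. F3 (ENSG00000117525, chromosome 1, 94994729 to 95007315, minus strand) was at 3.52, 2.67 and 4.29 CPM in LG and at 5.36, 2.75 and 3.42 CPM in HG. It was at 5.43, 4.29 and 5.20 CPM in LGV and at 7.05, 5.14 and 6.41 CPM in HGV. HG replicate 1 exceeded the lowest HGV library. F3 rose by 0.69 on the log2 scale between HGV and HG (SE 0.23, FDR 0.028), but without HG replicate 2 or 3 or HGV replicate 1 or 3 the FDR was 0.0717 to 0.112. Between LGV and LG the log2 fold change of F3 was 0.52 (SE 0.22, FDR 0.0755), and LGV replicate 2 and LG replicate 3 were nearly equal. Without LG replicate 3 it was 0.72 and passed (FDR 0.02).

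TFPI, F5, F12 and F13B were not called between HGV and HG. TFPI (ENSG00000003436, chromosome 2, 188328957 to 188430487, minus strand) was the steadiest of the 10 genes, with a lowest group mean of 454 ± 19.6 CPM (SD, n = 3) for LG and a highest of 504 ± 87.8 CPM for HGV, a 1.11-fold range in which all neighbours overlapped. Its log2 fold change was 0.10 (SE 0.15, FDR 0.619). F5 had 273, 205 and 279 CPM in HGV, with a log2 fold change of -0.29 (SE 0.14, FDR 0.0994), and F13B had 1.35, 1.12 and 1.88 CPM, with -0.82 (SE 0.35, FDR 0.0736). The DESeq2 Wald test gave both genes an FDR under the threshold, 0.047 for F5 and 0.0317 for F13B. F13B also passed in one fit of the 12 libraries (FDR 0.0405) and without HG replicate 2 (-1.16, FDR 0.00489), but had -0.50 (FDR 0.278) without HG replicate 1. F5 had -0.16 without HGV replicate 2 and was not called in any fit that left out 1 library. F12 had 4.72 and 5.71 CPM in HGV replicates 1 and 2 and its highest level of all libraries in HGV replicate 3, a range that enclosed the HG libraries, and a log2 fold change of -0.21 (SE 0.19, FDR 0.402).

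In low glucose, VPA gave 5 calls among the 10 genes, all lower in LGV than in LG, against 19.9% of 15944 genes called lower and 21.7% called higher. The member median was -0.45 on the log2 scale and that of all genes tested -0.01. The median of the 7 hepatocyte markers was -0.49 in this comparison, with 4 of them called lower. FGA fell by 1.16 (SE 0.17, FDR 5.79e-05), FGL1 by 1.05 (SE 0.13, FDR 1.67e-05), FGG by 0.88 (SE 0.18, FDR 0.00104) and FGB by 0.68 (SE 0.13, FDR 0.000907), and the fifth was F11. These 5 calls remained under each of the 16 other settings tried. F5 lay lower in every LGV library (254, 282 and 249 CPM) than in every LG library, but its log2 fold change of -0.23 (SE 0.12, FDR 0.124) was not called. F12 with 3.84, 4.42 and 4.08 CPM and F13B with 1.32, 1.01 and 1.01 CPM in LGV overlapped LG.

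The glucose comparison was repeated among VPA-treated cells. Between HGV and LGV, 5 genes were called, all higher in HGV, against 21.2% of 16208 genes called higher and 19.5% called lower. FGA had a log2 fold change of 1.23 (SE 0.17, FDR 2.48e-05), FGL1 of 1.18 (SE 0.14, FDR 5.94e-06) and FGB of 1.04 (SE 0.13, FDR 1.36e-05), so that FGB was about 2.05-fold higher. FGG had 0.40 (SE 0.14, FDR 0.0233), and the FDR was 0.0752 without HGV replicate 1 and 0.13 without LGV replicate 3. F12 had 0.56 (SE 0.21, FDR 0.0367), with 0.33 and an FDR of 0.263 without HGV replicate 3, and the call was also lost without any one LGV library. F13B, called between HG and LG, had 0.35 (SE 0.29, FDR 0.347) here.

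Whether the VPA difference depended on glucose was tested as an interaction over the 12 libraries. By edgeR's quasi-likelihood test, 0 of the 10 genes passed, and at an unadjusted p of 0.05 the count was also 0, as it was with the likelihood ratio test and with DESeq2. Of all 16389 genes tested, 0.0427% passed. The interaction was 0.33 (SE 0.22) for FGA, -0.17 (SE 0.24) for FGG and 0.19 (SE 0.23) for FGB on the log2 scale, and over the 10 genes its SE ran from 0.18 for F5 to 0.47 for F13B. F13B had the smallest p of the members, 0.0711 unadjusted (FDR 0.493), with -0.89 (SE 0.47).

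The cells with both high glucose and VPA were also set against the untreated cells in low glucose. Between HGV and LG, 2 genes were called higher and 2 lower, against 27.9% and 24.3% of 16266 genes. Neither count exceeds the share of all genes. FGG (-0.46 on the log2 scale, SE 0.17, FDR 0.029) and F11 (-0.81, SE 0.15, FDR 0.000121) were lower in HGV, whereas FGB (0.37, SE 0.15, FDR 0.0408) and F3 (0.83, SE 0.23, FDR 0.00428) were higher. FGA with 0.09 (SE 0.18, FDR 0.706) and FGL1 with 0.14 (SE 0.16, FDR 0.461) were not called. The calls for FGB and FGG were each lost without several single libraries, and that of FGB also with DESeq2 size factors (FDR 0.0564). F12, at 0.54 (SE 0.23, FDR 0.0556), passed under several other settings. Without LG replicate 3, which held the highest FGG of its group, the value for FGG was -0.20 with an FDR of 0.262, and the FDR for FGB reached 0.189 without LG replicate 1. This comparison shares its libraries with the others and is no separate evidence.

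Reads of 2 genes in the same library do not depend on how the library is scaled, so ratios were used to ask whether the chains moved by the same factor. The ratios of 4 pairs were each tested for VPA and for glucose by a two-sided exact permutation test within the other factor, with 8 tests adjusted together. The ratio of FGA to FGG reads was 1.77, 1.62 and 1.49 in LG and 1.77, 2.33 and 2.04 in HG. It was 1.23, 1.42 and 1.31 in LGV and 2.55, 2.54 and 1.92 in HGV. All 6 high-glucose libraries were above all 6 low-glucose ones, although HG replicate 1 and LG replicate 1 were nearly equal, and the mean difference was 0.57 on the log2 scale (exact permutation p = 0.005, the smallest that 400 arrangements allow, adjusted p = 0.02). For VPA the difference in this ratio was -0.06 (exact permutation p = 0.65), made of -0.30 in low and 0.19 in high glucose, and the difference between these was not tested.

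Averaged over the other factor, the share of FGG relative to FGB was lower under both treatments, and it was lowest with both together. The ratio of FGG to FGB reads averaged 3.37 ± 0.453 (SD, n = 3) in LG, 2.88 ± 0.269 in HG, 2.97 ± 0.234 in LGV and 1.92 ± 0.184 in HGV. The highest HGV library, at 2.13, was below all 9 others. LGV and HG each overlapped LG. The log2 difference was -0.38 for VPA (exact permutation p = 0.015, adjusted p = 0.03) and -0.43 for glucose (exact permutation p = 0.01, adjusted p = 0.0267). For VPA it was made of -0.18 in low and -0.58 in high glucose, and for glucose of -0.22 without and -0.63 with VPA. The difference between these parts was not tested. FGA to FGB averaged 5.44 ± 0.433 in LG, 5.95 ± 1.30 in HG, 3.92 ± 0.59 in LGV and 4.52 ± 1.01 in HGV. Its log2 difference was -0.44 for VPA (exact permutation p = 0.02, adjusted p = 0.032), a call that 6 of the 12 single libraries decide (HG replicates 2 and 3, HGV replicate 3, LG replicates 1 and 3 and LGV replicate 1), with an adjusted p of up to 0.08 when one is left out. For glucose it was 0.15 (exact permutation p = 0.32).

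F3 and TFPI, the starter of clotting and its inhibitor, had log2 read ratios of -6.99, -7.47 and -6.67 in LG and of -6.71, -7.13 and -7.06 in HG. The ratios were -6.59, -6.62 and -6.48 in LGV and -6.02, -6.44 and -6.56 in HGV. All 6 VPA libraries lay above all 6 untreated libraries. The mean difference was 0.55 (exact permutation p = 0.005, the smallest possible, adjusted p = 0.02), and for glucose it was 0.15 (exact permutation p = 0.36). The interaction of F3 itself was 0.18 (SE 0.33), and whether its response differed between media was not shown.

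**Figure D3:**
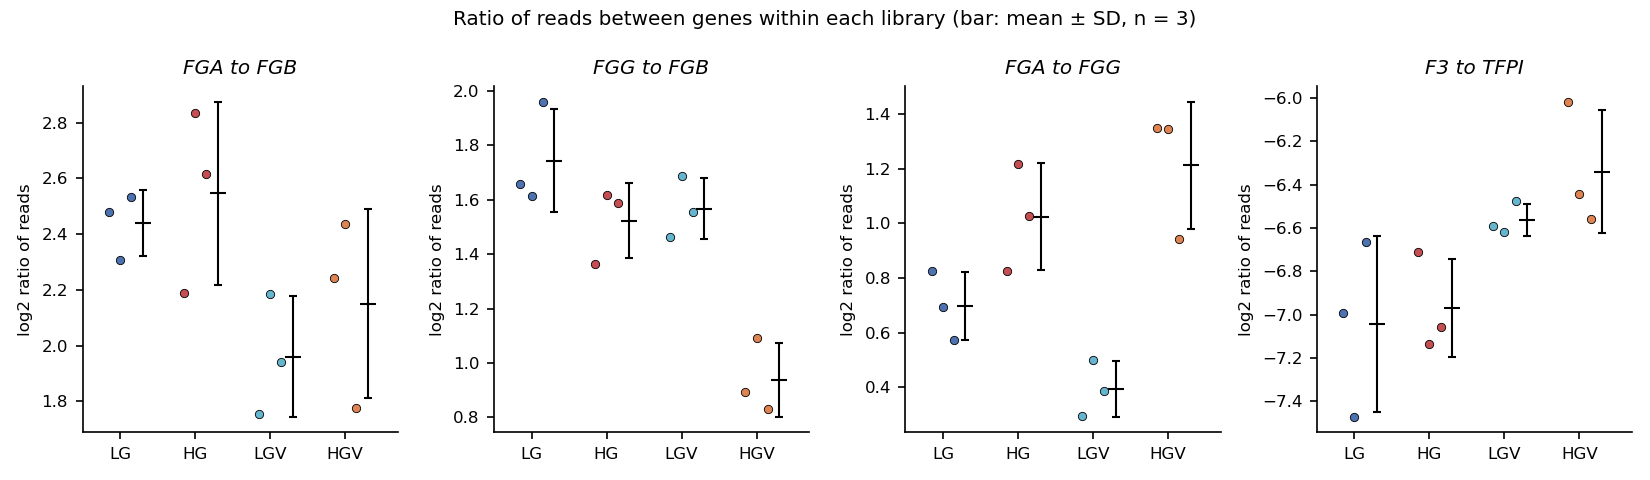
Log2 ratio of reads between pairs of genes in each of the 12 libraries; points are libraries and bars the mean ± SD (n = 3), and the axes do not start at 0. FGG to FGB is lowest in the 3 HGV libraries, FGA to FGG lies highest in HG and HGV, and F3 to TFPI lies higher in the 6 VPA libraries than in the 6 untreated ones.

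Of the genes annotated within 500 kb of the fibrinogen genes, PLRG1, which encodes a splicing protein, was the only other one analysed here. Its start lies 40.3 kb from that of FGA, and it averaged 79 CPM. It was not called in any comparison, with log2 fold changes of -0.09 (SE 0.12, FDR 0.629) between HG and LG, 0.22 (SE 0.10, FDR 0.0836) between HGV and HG and 0.05 (SE 0.13, FDR 0.772) between LGV and LG.

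Likeness of pattern was measured as the root mean square difference between log2 CPM profiles over the 12 libraries, each centred on its own mean, among 11951 genes that averaged 1 log2 CPM or more. The profile of FGA was nearest to those of PCOLCE2 (0.18) and CFB (0.18), followed by FGL1 (0.19), and FGA was the nearest of all to FGL1. FGB lay nearest to PGGT1B (0.16) and FGG to SRSF6 (0.13). Among the members the nearest to FGB was FGA at rank 222 of all candidates, and the nearest to FGG was F11 at rank 104. The nearest genes were HMGB1 for F11 (0.12), FDPS for F12 (0.14), VNN1 for F13B (0.30), KIAA1324L for F3 (0.17) and DDX21 for F5 (0.07). Genes with flat profiles lie near many others, and these values are descriptions.

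Vitamin K-dependent proteins, the other main group of liver clotting proteins, gave 4 calls of 6 genes between HG and LG, all higher. Over all genes tested, 12.0% were called higher. PROZ with 0.58 (FDR 0.0441) and F7 with 0.54 (FDR 0.0237) on the log2 scale led these 4 calls. The FDRs of the 4 ran from 0.0157 to 0.0473, and these calls were not tried with single libraries left out. With VPA, 5 of 6 fell in high glucose and 4 of 6 in low glucose, beside 20.2% and 19.9% of all genes called lower. F7, the partner of tissue factor, led with -1.73 (SE 0.14, FDR 9.87e-07) and -1.65 (SE 0.20, FDR 1.33e-05). F7 thus fell where F3 rose in high glucose. Among 4 other cofactors and contact proteins, KNG1, the gene of kininogen, rose by 1.84 in HG (SE 0.18, FDR 1.37e-06), and KLKB1, the gene of prekallikrein, which factor XIIa activates, rose by 1.57 (SE 0.23, FDR 0.000147) with VPA in high glucose and by 1.60 (SE 0.27, FDR 0.000272) in low glucose. F11, its paralog and neighbour on chromosome 4, fell in both.

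Of 13 inhibitors and proteins of fibrinolysis, 5 rose and 2 fell in HG, beside 12.0% of all genes called higher and 12.7% lower. The largest changes were those of SERPING1 (2.16, SE 0.14, FDR 1.26e-08), the C1 inhibitor that also blocks factors XIIa and XIa, and of PLG (1.26, SE 0.13, FDR 3.17e-06), which encodes plasminogen. With VPA 2 rose and 7 fell in high glucose, and 2 rose and 6 fell in low glucose, beside 25.8% of all genes called higher and 20.2% lower in high glucose and 21.7% and 19.9% in low glucose. SERPINA10, an inhibitor of factors Xa and XIa, fell by 2.21 (SE 0.14, FDR 1.46e-07) in high glucose, and PROCR, the endothelial protein C receptor, rose by 1.80 (SE 0.18, FDR 5.59e-06). Among 5 other genes with a fibrinogen-like domain, 3 rose in HG, beside 12.0% of all genes. They were FIBCD1 (1.41, FDR 0.00273), ANGPTL6 (1.05, FDR 0.0476) and ANGPTL4 (0.85, FDR 0.00443). Counts were low for ANGPTL6, with 9 to 12 reads per library in LG and 15 to 25 in HG. FIBCD1 had 15 to 27 reads in LG and 40 to 53 in HG. With VPA in high glucose, ANGPTL1 fell by 3.07 (SE 0.29, FDR 3.78e-06) and ANGPTL2 by 0.68, while FIBCD1 rose by 1.22 (SE 0.21, FDR 0.00041).

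Secreted chains pass through the endoplasmic reticulum, and 7 genes of folding and cargo transport were compared. In HG, 6 of the 7 fell, beside 12.7% of all genes called lower. CALR with -2.25 (SE 0.16, FDR 1.66e-08) and HSPA5 with -2.06 (SE 0.14, FDR 1.26e-08) fell the most. The 6 genes fell in the comparison in which FGA, FGB and FGG rose. LMAN1 and MCFD2 form the receptor that carries factor V out of the endoplasmic reticulum. MCFD2 fell by 1.11 in HG (SE 0.14, FDR 2.4e-05), from 797 ± 152 CPM to 363 ± 40.6 CPM (SD, n = 3), while LMAN1 had -0.24 (SE 0.15, FDR 0.243) and F5, their cargo, 0.02. With VPA, CANX and PDIA3 fell by 0.34 and 0.33 in high glucose, and P4HB by 0.38 in low glucose.

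Of 15 regulators of liver and acute phase genes, 2 rose and 2 fell in HG, a share near that of all genes (12.0% higher and 12.7% lower). SOCS3, a feedback inhibitor induced by interleukin-6 signals, rose by 1.89 (SE 0.20, FDR 2.28e-06) and CEBPD, a C/EBP factor of the acute phase, by 0.83 (SE 0.21, FDR 0.00684). PPARA fell by 0.66. With VPA 10 fell and 1 rose in high glucose, and 8 were called in low glucose, all lower. Over all genes, 20.2% were called lower and 25.8% higher in high glucose, and 19.9% lower and 21.7% higher in low glucose. CEBPD fell by 2.12 (SE 0.22, FDR 7.02e-06) and 1.63 (SE 0.22, FDR 3.05e-05), and NR1H4, the bile acid receptor FXR, by 1.80 (SE 0.13, FDR 3.12e-07) and 1.32 (SE 0.11, FDR 6.3e-07).

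Of 6 regulators known for the promoter of F3, 3 rose with VPA in high glucose and 3 in low glucose, and 1 fell in each. Over all genes, 25.8% and 21.7% were called higher and 20.2% and 19.9% lower. The 3 higher genes are a larger share than that, but the list holds only 6 genes and the excess was not tested. FOS, a subunit of AP-1, rose by 1.89 (SE 0.20, FDR 9.57e-06) in high and 1.34 (SE 0.27, FDR 0.00118) in low glucose. EGR1, a zinc finger factor of GC-rich sites, rose by 1.19 (SE 0.10, FDR 1.19e-06) and 1.13 (SE 0.23, FDR 0.00101), and NFKB1 fell by 1.46 (SE 0.11, FDR 4.23e-07) and 0.98 (SE 0.13, FDR 2.64e-05). In HG against LG, FOS fell by 0.80 (SE 0.28, FDR 0.0448) and SP1 by 0.38 (SE 0.13, FDR 0.0406), where F3 was not called. Between HG and LG the list medians were 0.44 for vitamin K-dependent proteins, 0.33 for inhibitors and fibrinolysis, -1.11 for folding and cargo, 0.08 for liver regulators and -0.19 for regulators of F3, beside 0.01 for all genes tested. Between HGV and HG they were -0.74, -0.28, -0.17, -0.50 and 0.28 in the same order, beside 0.03. Fibrinogen-like domain proteins (5 genes) had medians of 0.85 between HG and LG and -0.19 between HGV and HG. Other cofactors and contact proteins (4 genes) had 0.40 and 0.37, so their median was above 0 in both.

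**Figure D4:**
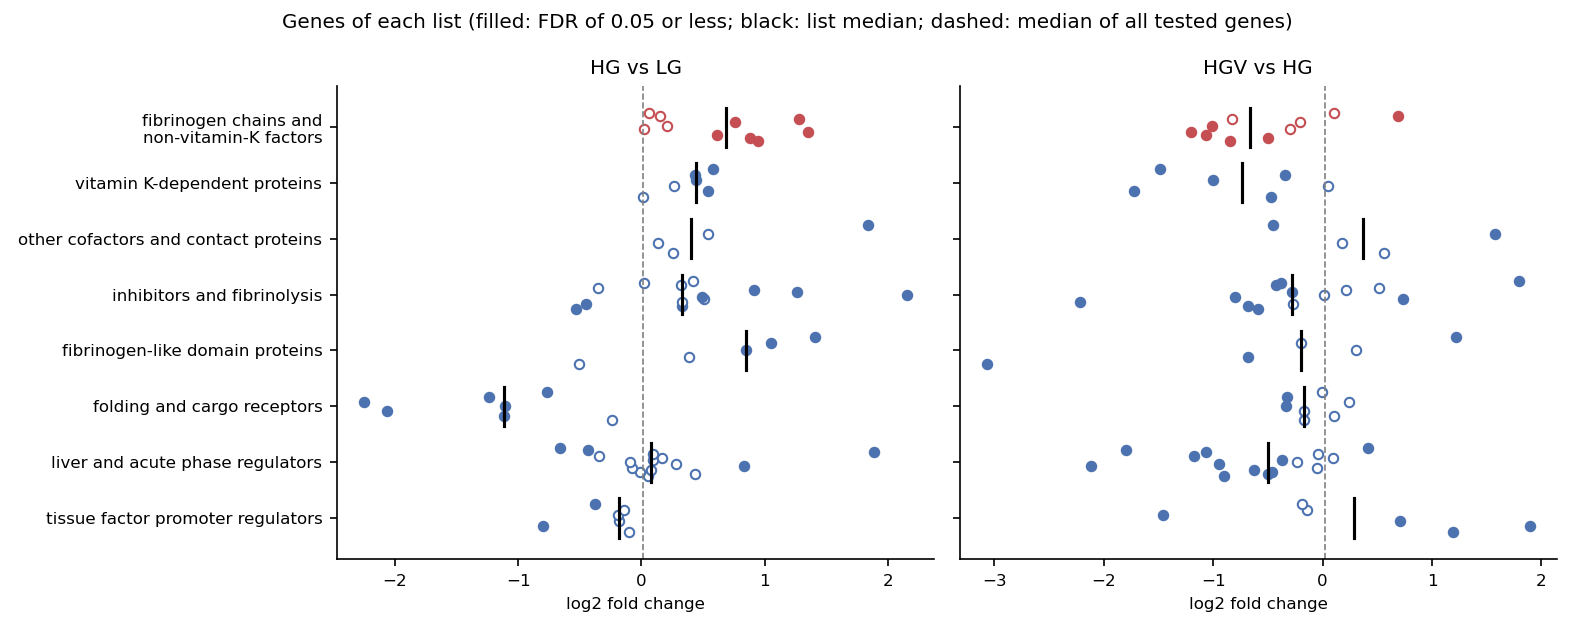
Log2 fold changes of the 10 genes (red) and of the genes of 7 related lists (blue) between HG and LG (left) and between HGV and HG (right); filled points have an FDR of 0.05 or less, black bars are list medians and dashed lines the median of all genes tested. The medians of the 10 genes are 0.69 and -0.66, and folding and cargo genes lie at the left in HG.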

How the data were processed

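From trimmed single-end reads aligned to GRCh37 (STAR), the authors made raw counts for each Ensembl gene (featureCounts), which they deposited without normalization. They had left out genes averaging fewer than 10 reads per sample, which was checked on the values. The libraries were made with a directional kit, but the strand setting of the counting is not stated.

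Tests used edgeR 4.0.16 (R 4.3.3) with TMM factors, dispersions from the libraries compared, the quasi-likelihood F test and Benjamini-Hochberg adjustment. They covered every gene whose mean count in those libraries was 10 or more. A gene was called at an FDR of 0.05 or less. For ratios, 0.5 reads were added to each count, and they were tested by exact permutation in Python 3.11.15 (numpy 2.4.6, pandas 2.3.3). Figures were drawn with matplotlib 3.10.9. Positions came from GENCODE v44 lifted to GRCh37, which placed 97.47% of 16389 genes by identifier. Total counts ran from 29798442 to 45572694 per library. Replicates differed by more than sampling noise (chi-square per gene of 10.2 to 64.3), so the spread between libraries, beyond counting error, limited the precision.

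The members and lists were chosen with earlier results of these data known. All members were named. From the other lists, up to 3 called genes with the largest log2 fold change per comparison could be named, with LMAN1 and MCFD2, the genes within 500 kb of the fibrinogen genes and the 3 nearest profiles of each member. A few items this rule could name are not reported here. Alternatives were DESeq2 1.42.0 size factors, upper quartile and library size scaling, other count filters, the likelihood ratio and DESeq2 Wald tests, one fit of 12 libraries, a replicate block, an FDR of 0.01, no added reads in ratios, and leaving out each library. The statistics were tested on simulated data.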

Additional observations from a re-analysis of the deposited data

How the results depend on the processing

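Of the 26 calls made for single genes in the comparisons, 17 held under each of the 16 alternatives tried for them. At an FDR of 0.01, members called numbered 5 between HG and LG, 4 between HGV and HG and 5 between LGV and LG. They numbered 3 between HGV and LGV and 2 between HGV and LG. The number over all genes at that FDR was not taken. With upper quartile factors or library sizes, the sign turned for F12 between LGV and LG (0.045 and 0.119) and for F5 between HGV and LGV (0.021 and 0.023), and with library sizes the interaction turned for F11 (-0.003) and TFPI (-0.005); none of these was called. Between HGV and LG, the call of FGG was lost with both scalings (-0.309 and -0.242), and library sizes added calls of FGL1 (0.37) and TFPI (0.393). F12 was called there with upper quartile factors (0.693), library sizes (0.771), the filter of 1 CPM (0.561), the likelihood ratio test (0.54), one fit of 12 libraries (0.532) and without HGV replicate 1 (0.705), and FGB lost its call with DESeq2 size factors (0.349) and one fit of 12 libraries (0.365). Library sizes moved the median of all genes from 0.02 to 0.25 between HGV and LG, and the share of calls that were higher from 53.5% to 71.8%; the shares with upper quartile factors and library sizes were 64.3% and 62.6% in place of 48.6% between HG and LG, 62.2% and 68.1% in place of 56.1% between HGV and HG, 61% and 69.7% in place of 52.1% between LGV and LG, and 63.5% and 62% in place of 52.2% between HGV and LGV.

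With one library left out at a time, the members called ranged from 4 to 6 between HG and LG and between HGV and HG, from 5 to 6 between LGV and LG (F3 added without LG replicate 3, 0.724), from 3 to 5 between HGV and LGV and from 2 to 4 between HGV and LG. Calls over all genes then ranged from 1933 to 5338 between HG and LG and from 6083 to 7793 between HGV and HG. They ranged from 4942 to 6986 between LGV and LG, 4516 to 7228 between HGV and LGV and 7203 to 8600 between HGV and LG. Between HG and LG, F5 ranged from -0.071 to 0.123, F3 from -0.14 to 0.342 and TFPI from -0.067 to 0.173. Between HGV and HG, TFPI ranged from -0.05 to 0.232. Between LGV and LG, F12 ranged from -0.147 to 0.088, F13B from -0.046 to 0.166 and TFPI from -0.012 to 0.135. Between HGV and LGV, F5 ranged from -0.146 to 0.062 and TFPI from -0.072 to 0.165, and between HGV and LG, FGA ranged from -0.019 to 0.271. The interaction ranged from -0.008 to 0.39 for FGB, from -0.15 to 0.04 for F5, from -0.097 to 0.121 for F11, from -0.032 to 0.447 for F3 and from -0.101 to 0.157 for TFPI. The VPA difference in log2 ratio ranged from -0.527 to -0.344 for FGA to FGB, from -0.42 to -0.326 for FGG to FGB, with an adjusted p of 0.056 without LGV replicate 1, and from -0.107 to 0.01 for FGA to FGG. The cause was not tested for any of these.

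Correlations of same-numbered deviations from the group means ran from -0.201 to 0.295, and in no comparison was every one over 0.1. Libraries with different numbers averaged from -0.046 to 0.04. With 3 same-numbered values per comparison, pairing by replicate number was neither shown nor excluded. With the replicate block, the members called numbered 6, 8, 5, 5, 4 and 0 in the order HG and LG, HGV and HG, LGV and LG, HGV and LGV, HGV and LG, and interaction. In the same order, the block called 3351 of 15452, 8229 of 16188, 6971 of 15944, 7308 of 16208, 8200 of 16266 and 13 of 16389 genes. Without it, 3813, 7456, 6638, 6604, 8491 and 7 of all genes were called. The calls it added between HGV and HG were F5 (-0.299) and F13B (-0.736). Depth limits F13B the most, with 26 to 115 reads per library.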
